A study of Saccharomyces cerevisiae with 8 samples.

Results

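Ribosome footprints were examined on pairs of Xrn1-sensitive unstable transcripts (XUTs) of budding yeast that lie on opposite strands and share a stretch of chromosome. The span of a XUT was taken from the smallest start to the largest end of its listed open reading frames (ORFs). Pairs were kept where the spans of a plus-strand and a minus-strand XUT overlapped by at least 1 nt on chromosomes 1 to 16. This gave 55 pairs made of 106 XUTs, out of 1633 XUTs on these chromosomes (6.49%), with 1089 ORFs. The criterion used coordinates and no measured value, but it was set with earlier results of these data known. 1 further pair met the criterion and is not analysed here.

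The study profiled Saccharomyces cerevisiae of strain BY4741, MATa with the markers his3{delta}1, met15{delta}0, ura3{delta}0 and leu2{delta}0, which all 4 conditions share. WT and WT + CHX cells had no further change, and upf1 and upf1 + CHX cells also carried upf1*::kanMX4. Cultures in YPD at 30 °C were taken at OD600 0.5. CHX stands for 15 min of cycloheximide, a drug that stalls elongating ribosomes. Each condition had 2 biological replicates, but the deposited table holds 1 count and 1 phase score per ORF and condition, so the spread between replicates is unknown and no difference between conditions could be tested. Intervals are exact 95% intervals and cover counting error only. Where 4 values follow each other, they stand in the order WT, WT + CHX, upf1, upf1 + CHX.

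XUTs are noncoding RNA polymerase II transcripts that pile up when Xrn1, the cytoplasmic 5′ to 3′ exonuclease, is missing. Upf1 is the RNA helicase at the heart of nonsense-mediated decay, which degrades RNAs on which translation ends early, and XUTs that reach ribosomes can become its substrates. Where RNAs from both strands of a locus are made, they can pair into double-stranded RNA, and in budding yeast such pairing has been reported to shield XUTs from nonsense-mediated decay. Ribosome footprints show on which strand, and in which ORF of a strand, ribosomes sat.

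The shared stretches ran from 2 to 1617 nt (median 208 nt), and 42 of the 55 pairs shared at least 100 nt. In 26 pairs 1 span lay wholly within the other, 13 times on each strand. In 16 pairs the 5′ ends faced each other across the shared stretch (divergent), and in 13 the 3′ ends did (convergent). Pairs were found on all 16 chromosomes at 51 loci, and 4 XUTs had 2 partners each. Spans built from ORFs leave out transcript ends, so the RNAs themselves may overlap further.

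The sequences of opposite-strand ORFs that share bases show what the pairs have in common, and those of the best-read pairs and of the longest shared ORF and the smallest partner are printed here 5′ to 3′ from the R64 reference genome (RefSeq), without the stop codon. Capitals mark the bases that the ORF shares with the ORF of the other strand, so a capital run of one ORF is the reverse complement of that of its partner. The first pair faces start to start: the 126-nt first ORF of XUT1722 (chr15:969771-969896, minus strand) and a 120-nt ORF of XUT0842 (chr15:969845-969964, plus strand) share their first 52 nt.
XUT1722: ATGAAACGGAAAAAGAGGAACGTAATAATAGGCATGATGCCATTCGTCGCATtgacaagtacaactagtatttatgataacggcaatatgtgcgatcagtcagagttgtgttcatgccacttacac
XUT0842: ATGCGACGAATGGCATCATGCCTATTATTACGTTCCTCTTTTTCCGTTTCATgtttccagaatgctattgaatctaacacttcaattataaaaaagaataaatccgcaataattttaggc

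In the next pair a 39-nt ORF of XUT1139 (chr5:268963-269001, minus strand) lies wholly within a 99-nt ORF of XUT0279 (chr5:268937-269035, plus strand).
XUT0279: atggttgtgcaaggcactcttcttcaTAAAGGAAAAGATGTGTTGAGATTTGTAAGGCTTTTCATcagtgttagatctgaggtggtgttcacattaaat
XUT1139: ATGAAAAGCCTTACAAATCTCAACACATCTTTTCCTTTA

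The longest shared ORF stretch was 246 nt, the whole of an ORF of XUT1353 (chr9:429072-429317, minus strand) within a 276-nt ORF of XUT0505 (chr9:429061-429336, plus strand).
XUT0505: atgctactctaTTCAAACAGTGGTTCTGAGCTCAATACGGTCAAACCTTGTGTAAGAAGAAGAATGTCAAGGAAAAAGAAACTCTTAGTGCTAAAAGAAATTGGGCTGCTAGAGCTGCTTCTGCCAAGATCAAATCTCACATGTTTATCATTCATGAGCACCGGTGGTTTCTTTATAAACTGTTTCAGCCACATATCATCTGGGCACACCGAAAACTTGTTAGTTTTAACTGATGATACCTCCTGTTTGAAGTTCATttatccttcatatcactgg
XUT1353: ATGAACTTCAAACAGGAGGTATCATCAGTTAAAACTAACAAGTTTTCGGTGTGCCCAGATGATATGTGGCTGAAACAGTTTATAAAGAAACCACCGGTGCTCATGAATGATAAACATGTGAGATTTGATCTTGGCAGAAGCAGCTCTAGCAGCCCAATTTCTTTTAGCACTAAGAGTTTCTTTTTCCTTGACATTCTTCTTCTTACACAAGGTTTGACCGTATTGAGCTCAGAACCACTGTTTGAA

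The pair XUT0732 and XUT1590 is shown by 2 kinds of ORF: a 57-nt and a 63-nt ORF that share 43 nt (chr13:731685-731741, plus strand, and chr13:731699-731761, minus strand), and the 30-nt first ORF of each partner (chr13:731476-731505, plus strand, and chr13:731935-731964, minus strand), which held the most reads of any ORF of its XUT and shares no base with the other first ORF.
XUT0732: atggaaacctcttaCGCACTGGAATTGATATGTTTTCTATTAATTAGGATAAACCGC
XUT1590: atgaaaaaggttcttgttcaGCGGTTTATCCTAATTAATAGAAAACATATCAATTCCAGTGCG
XUT0732, first ORF: atgttttcctatatgtacttaccaattatg
XUT1590, first ORF: atggtatatttcctactctttagctttata

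The smallest partner was XUT1007, whose 1 listed ORF of 27 nt (chr3:30048-30074, minus strand) covers an 18-nt ORF of XUT0083 (chr3:30056-30073, plus strand).
XUT0083: ATGTCAAAGCAGATGCCA
XUT1007: aTGGCATCTGCTTTGACATatttgtta

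In the R64 sequence each of the 1089 ORFs of the pairs had ATG at its start and a stop codon just after its end. Between the strands, 347 pairs of ORFs shared bases, in 53 of the 55 XUT pairs. In 125 of them the first base of plus-strand codons lay opposite the first base of minus-strand codons, in 129 the second base did and in 93 the last base did. No register held most of the shared ORFs.

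The shared stretches lay between genes. None of the 55 overlapped a coding sequence (CDS). The 52 gaps between neighbouring CDSs that held them had a median of 1822 nt (415 to 10122 nt), against 362 nt over the 6132 gaps of at least 20 nt in the genome. Of these 52 gaps, 21 lay between divergent genes (40.4%, against 24.9% of all gaps), 26 between genes in tandem (50% against 50.5%) and 5 between convergent genes (9.62% against 24.6%). Only 18 of the paired XUTs (17.0%) ran antisense to a CDS, against 1065 of the 1527 other XUTs (69.7%). The overlap rule bears on this, since a CDS under a shared stretch would lie on the strand of 1 of the partners. It also bears on the gap lengths, since a short gap has little room for a shared stretch. The gaps of the genome were not matched for length in any of these comparisons.

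Many paired XUTs pointed at a gene on their own strand: 31 of the 104 with a CDS ahead ended within 500 nt of it (29.8%), against 174 of 1519 other XUTs (11.5%). The median distance to that CDS was 1018 nt for paired XUTs and 2450 nt for the others. Paired XUTs ran antisense to a CDS less often (17.0% against 69.7%), and the distances were not compared between XUTs alike in this. Reads of a longer transcript of such a gene could not be separated from those of the XUT in these counts, and their part was not tested. Long terminal repeats (LTRs) or Ty retrotransposons, which exist in near-identical copies between which an aligner can misplace reads, overlapped 24 paired XUTs (22.6%) and 96 of the others (6.29%).

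Reads were summed for each XUT over ORFs that do not overlap on the same strand. The XUT ORFs of chromosomes 1 to 16 then held 3331, 25568, 17826 and 31629 reads, so WT was by far the shallowest condition. The paired XUTs held 396, 3201, 1852 and 3620 of these reads, which is 11.9%, 12.5%, 10.4% and 11.4%. Of the 9069 reads of the pairs, 49.0% lay on the 10 most-read XUTs. A paired XUT had a median of 37 reads over all conditions, against 13 for the other XUTs. Per 100 nt of span the medians were 5.23 and 2.76 reads. Spans of paired XUTs were also longer, with a median of 589 nt against 464 nt, and a longer span meets the overlap criterion more easily.

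Footprints fell on both strands of most pairs. Both partners had at least 1 read in 19, 44, 34 and 41 pairs, and in 48 of the 55 when the conditions were pooled. The other 7 pairs were read on 1 strand only. The count in WT has to be read beside the depth, as 7 pairs had no read there on either strand, against 1, 1 and 0 in the deeper conditions. At least 10 reads on each partner were reached by 1, 22, 9 and 22 pairs.

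Among the 48 pairs with at least 20 pooled reads, the less-read partner held a median of 14.9% of the pair's reads. It held under 10% in 18 pairs and at least 30% in 17. Among pairs with at least 20 reads in a condition, which numbered 4, 40, 30 and 43, the median was 10.4%, 18.3%, 12.5% and 15.5%. These medians count every ORF of a XUT, also those outside the shared stretch. From ORFs wholly inside the stretch alone, the pooled median was 26.2% over the 24 pairs that had 20 reads there. By condition it was 1.04%, 24.3%, 10.5% and 27.8%, over 1, 14, 12 and 17 pairs. The minus-strand partner had more reads in 31 pairs and the plus-strand partner in 24. The partner with the longer span had more reads in 40 of the 55.

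**Figure D1:**
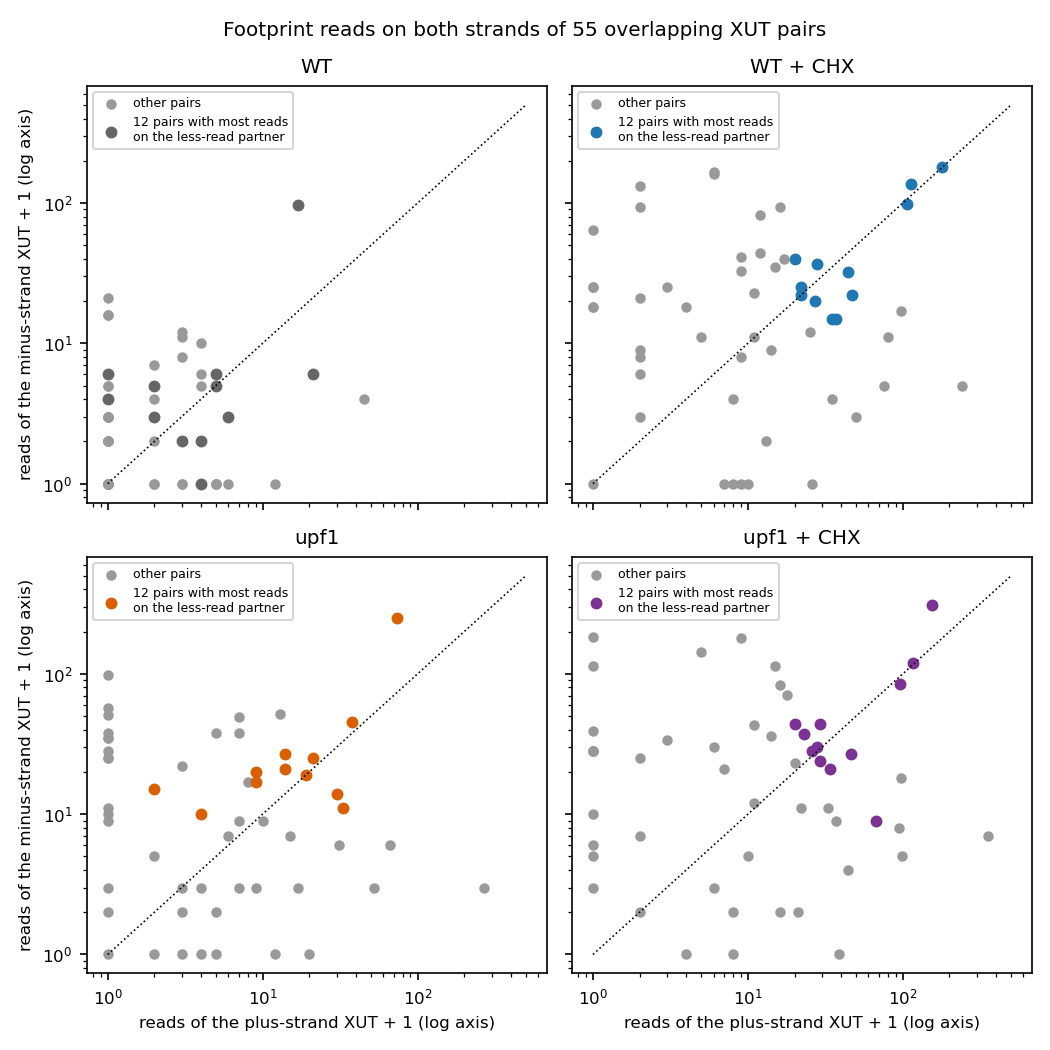
Reads plus 1 of the plus-strand XUT (x axis, log scale) and the minus-strand XUT (y axis, log scale) of the 55 pairs in the 4 conditions; each point is a pair, coloured points are the 12 pairs with most reads on the less-read partner, and the dotted line marks equal reads. Most grey points sit far from the line, and WT holds far fewer reads than the other conditions.

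The arrangement of the pair went with different medians. The less-read partner held a median of 22.2% in the 13 divergent pairs with at least 20 pooled reads, 19.4% in the 12 convergent pairs and 7.55% in the 23 nested pairs. In a nested pair the inner span is by construction the shorter one.

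Counts were also compared between the strands at the level of single ORFs. Of the 347 opposite-strand ORF pairs that share bases, 185 had reads on both ORFs and 29 had at least 10 on each. Of the 106 with at least 20 reads in sum, 25 had no read on 1 of the strands and 1 had equal counts. Many of these ORFs share only part of their bases, and for those unequal counts cannot show that counting used strand. Some ORFs lie wholly inside an ORF of the other strand. Those of XUT1353 inside XUT0505 and of XUT0817 inside XUT1691 had more pooled reads than the ORF around them, and that of XUT1139 inside XUT0279 had fewer (counts below). The use of strand was not tested from such ORFs. Sharing of at least 80% of the longer ORF was found in 11 ORF pairs. Of these, 10 had any read and 2 had equal nonzero counts. How the counting used the strand of a read is not given in the sources used here. In the XUT0083 and XUT1007 ORFs printed above, both strands reached 15 reads in sum, but by condition XUT0083 had 1, 6, 1 and 7 reads where XUT1007 had 3, 4, 2 and 6.

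The 12 pairs with most reads on the less-read partner are given in turn, in that order. The most-read of all was XUT0842 (plus strand) with XUT1722 (minus strand) on chromosome 15, where XUT1722 lies within the span of XUT0842 over 475 nt, between YOR343C and the Ty gag-pol gene YOR343W-B. A Ty1 LTR overlaps the shared stretch. XUT0842 had 16, 179, 73 and 154 reads. XUT1722 had 95, 180, 248 and 307. The minus strand thus led in WT, upf1 and upf1 + CHX, and the strands were level in WT + CHX. The plus strand held 14.4% of the pair's reads in WT (interval 8.47 to 22.4%) and 49.9% in WT + CHX (44.6 to 55.2%). In upf1 its share was 22.7% (18.3 to 27.7%), and with CHX added 33.4% (29.1 to 37.9%). These shares include ORFs of XUT0842 that lie outside the shared stretch or across its edge. ORFs wholly inside it had 1, 21, 10 and 15 reads on the plus strand and 95, 180, 248 and 307 on the minus strand, so there the minus strand led in each condition, with a pooled plus share of 5.36% (3.96 to 7.06%).

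Within this pair 1 ORF held nearly all minus-strand reads. The 126-nt first ORF of XUT1722 printed above had 92, 176, 246 and 302 reads, or 816 of the 830 reads of XUT1722, and it overlaps no annotated LTR. The ORF of XUT0842 that faces it had 4, 60, 12 and 30 reads. The most-read ORF of XUT0842 with an LTR under it, 117 nt long, had 4, 33, 27 and 42 reads, as many in sum (106) as the facing ORF. The authors' phase score, which runs from 0 to 1 and whose formula is not given in the sources used here, was 0.298, 0.261, 0.399 and 0.407 for the XUT1722 ORF. It was 0.661, 0.058, 0.188 and 0.177 for the facing XUT0842 ORF, the first of these from 4 reads.

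XUT0279 and XUT1139 on chromosome 5 are divergent and share 459 nt between FCY2, which encodes a purine-cytosine permease, and RPL34A, a gene of a large-subunit ribosomal protein. XUT0279 had 20, 112, 37 and 116 reads. XUT1139 had 5, 135, 44 and 118. The plus strand led in WT with 80% of the reads (59.3 to 93.2%), and the strands were close to level elsewhere, at 45.3%, 45.7% and 49.6%, each with an interval that includes 50%. Of the pooled reads on ORFs wholly inside the shared stretch, 41.3% lay on the plus strand (36.9 to 45.8%). The 99-nt ORF of XUT0279 held 9, 74, 24 and 82 reads, and the 39-nt ORF of XUT1139 inside it 2, 24, 15 and 31. The most-read ORF of XUT1139 was its first, of 33 nt, with 1, 61, 13 and 53 reads and phase scores of 1, 0.246, 0.714 and 0.540, the first from a single read.

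XUT0732 and XUT1590 on chromosome 13 share 468 nt between RRP5, whose product acts in ribosomal RNA processing, and RPS10B, a gene of a small-subunit ribosomal protein. XUT0732 had 4, 106, 13 and 95 reads. XUT1590 had 4, 97, 26 and 83. The strands were near level in WT + CHX (52.2% plus, 45.1 to 59.3%) and in upf1 + CHX (53.4%, 45.8 to 60.9%), and the plus strand held 33.3% in upf1 (19.1 to 50.2%). Inside the shared stretch the minus strand led in each condition, with 4, 97, 26 and 83 reads against 0, 34, 2 and 32, and the pooled plus share there was 24.5% (19.5 to 30.0%). The first ORF of XUT0732 crosses the edge of the stretch and is not in these counts. The 30-nt first ORF of XUT0732 held 4, 72, 11 and 63 reads, with phase scores of 0.25, 0.457, 0.650 and 0.448. The 30-nt first ORF of XUT1590 held 1, 53, 10 and 45 reads, with scores of 1, 0.615, 0.882 and 0.498. Pooled and in both CHX conditions, each first ORF was the most-read of its XUT. A 189-nt ORF of XUT1590 had 3, 39, 11 and 27 reads, more than the first ORF in WT and in upf1.

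XUT0813 and XUT1684 on chromosome 15 are convergent and share only 12 nt between TIR2, a gene of a cell wall mannoprotein, and AUS1, a gene of a sterol transporter. XUT0813 had 5, 43, 3 and 25 reads, and XUT1684 had 2, 31, 9 and 27. The plus strand led in WT + CHX (58.1%, 46.1 to 69.5%) and the minus strand in upf1 (25.0% plus, 5.49 to 57.2%), with intervals that overlap. The most-read ORFs, of 57 nt on XUT0813 and 42 nt on XUT1684, both lay outside the shared 12 nt and each had 28 reads in WT + CHX, with phase scores of 0.346 and 0.20.

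XUT0906 and XUT1778 on chromosome 16 share 600 nt, the whole span of XUT1778, between SDD4 and EAF3, whose product is a subunit of histone-modifying complexes. XUT0906 had 1, 26, 20 and 28 reads, and XUT1778 had 2, 19, 24 and 23. Over all ORFs the plus share was 33.3%, 57.8%, 45.5% and 54.9%, each with an interval that includes 50%. On ORFs wholly inside the shared stretch the minus strand led in each condition, with 2, 19, 24 and 23 reads against 0, 7, 2 and 8, and the pooled plus share there was 20% (12.1 to 30.1%). The most-read ORFs were the first of each XUT, of 42 nt on XUT0906 (0, 16, 10 and 17 reads) and of 168 nt on XUT1778 (0, 13, 11 and 13 reads). In upf1 + CHX their phase scores were 0.626 and 0.350.

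XUT0918 and XUT1802 on chromosome 16 share 1153 nt between YPR148C and NCE102, whose product belongs to the plasma membrane domains called eisosomes. XUT0918 had 0, 34, 8 and 27 reads, and XUT1802 had 5, 14, 19 and 29. The plus strand led in WT + CHX (70.8%, 55.9 to 83.0%), while in upf1 it held 29.6% (13.8 to 50.2%) and in upf1 + CHX 48.2% (34.7 to 62.0%). Inside the shared stretch the plus strand had 0, 34, 8 and 27 reads against 3, 10, 12 and 12. Its pooled share there was 65.1% (55.2 to 74.1%). Of the reads of XUT0918, 0, 25, 4 and 21 lay on its 111-nt first ORF. The most-read ORF of XUT1802, also its first and 126 nt long, lay outside the shared stretch with 2, 2, 4 and 14 reads, and scored 0.50 in upf1 + CHX against 0.363 for that of XUT0918.

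XUT0506 and XUT1354 on chromosome 9 are convergent over 89 nt between YIR042C and YIR043C, and XUT1354 runs over the pseudogene YIR043C on its own strand. XUT0506 had 3, 36, 18 and 45 reads and XUT1354 had 0, 14, 18 and 26. The plus strand led in WT + CHX (72.0%, 57.5 to 83.8%) and in upf1 + CHX (63.4%, 51.1 to 74.5%), and the strands were equal in upf1. The most-read ORFs, of 135 nt on XUT0506 with 3, 26, 13 and 30 reads and of 183 nt on XUT1354 with 0, 7, 13 and 15, lay outside the shared stretch and scored 0.266 and 0.199 in upf1 + CHX.

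XUT0505 and XUT1353 on chromosome 9 are divergent over 1617 nt, the longest shared stretch of all, between GTT1, a glutathione transferase gene, and YPS6, an aspartyl protease gene. XUT0505 had 2, 21, 13 and 22 reads and XUT1353 had 1, 24, 20 and 36. The plus share was 66.7%, 46.7%, 39.4% and 37.9%, each with an interval that includes 50%. Pooled over the ORFs wholly inside, it was 28.0% (19.8 to 37.5%). The 276-nt ORF of XUT0505 had 1, 7, 4 and 12 reads and the 246-nt ORF of XUT1353 inside it 1, 15, 12 and 23, each the most-read of its XUT. Their phase scores in upf1 + CHX were 0.25 and 0.414. The same stretch of DNA thus carried footprints on a long ORF of either strand.

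**Figure D2:**
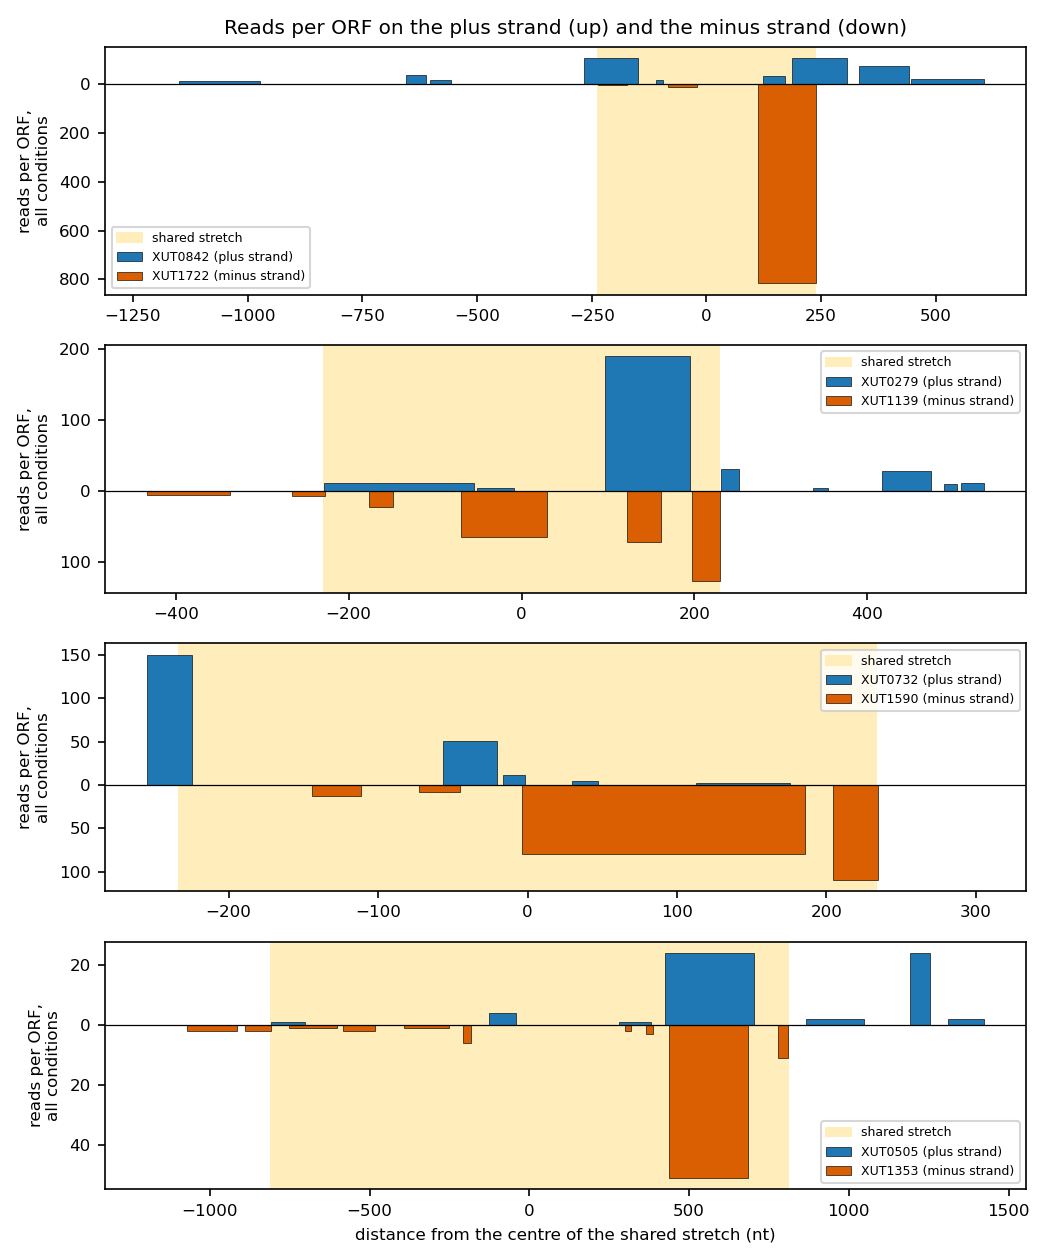
Reads of the 4 conditions together on each non-overlapping ORF (bar width, ORF length; bar height, reads; plus strand up, minus strand down) against the distance in nt from the centre of the shared stretch (shaded), for 4 pairs. The first ORF of XUT1722 stands out with 816 reads, and in XUT0505 and XUT1353 the most-read ORFs of the strands face each other.

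XUT0094 and XUT1013 on chromosome 3 are convergent over 184 nt beside YCR001W, an uncharacterized gene to which XUT1013 is antisense. XUT0094 had 1, 19, 8 and 28 reads and XUT1013 had 4, 39, 16 and 43, so over all ORFs the minus strand had more reads in each condition. On ORFs wholly inside the shared stretch XUT0094 had 1, 4, 2 and 2 reads and XUT1013 had 0, the opposite direction. The 27-nt first ORF of XUT0094 had 0, 7, 4 and 16 reads and scored 0.700 in upf1 + CHX. At its other end XUT1013 is divergent with XUT0095 over 240 nt, and XUT0095 had 3, 16, 7 and 19 reads. The first ORF of XUT1013, 42 nt long, lies in that second shared stretch with 1, 11, 2 and 9 reads and a score of 0.901 in upf1 + CHX.

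XUT0817 and XUT1691 on chromosome 15 are divergent over 158 nt between ASE1, a microtubule-bundling protein gene, and LPL1, a putative hydrolase gene. XUT0817, over which a Ty1 LTR lies, had 3, 21, 32 and 33 reads and XUT1691 had 1, 21, 10 and 20. The strands were equal in WT + CHX and the plus strand led in upf1 (76.2%, 60.5 to 87.9%). The most-read ORFs, of 39 nt on XUT0817 (2, 10, 16 and 13 reads) and of 150 nt on XUT1691 (1, 10, 3 and 15 reads), share all 39 nt of the former. They scored 0.286 and 0.417 in upf1 + CHX.

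XUT0275 and XUT1138 on chromosome 5 are convergent over 139 nt between CAJ1, a J-domain co-chaperone gene, and ISD11, whose product acts in iron-sulfur cluster assembly. XUT0275 had 4, 46, 29 and 66 reads and XUT1138, over which Ty1 LTRs lie, had 5, 21, 13 and 8. The plus share was 68.7% in WT + CHX (56.2 to 79.4%) and 69.0% in upf1 (52.9 to 82.4%). It reached 89.2% in upf1 + CHX (79.8 to 95.2%). ORFs wholly inside the shared stretch had 0 pooled reads on the plus strand and 1 on the minus strand, so these shares rest on other ORFs. All 145 reads of XUT0275 lay on its first ORF, which scored 0.661, 0.451, 0.397 and 0.398. The most-read ORF of XUT1138, 57 nt long, overlaps an LTR and had 3, 9, 8 and 1 reads.

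XUT0520 and XUT1359 on chromosome 10 share the 394 nt of XUT0520 between JJJ2, another J-domain protein gene, and FMP33, a gene of a mitochondrial protein. XUT0520 had 0, 27, 1 and 19 reads and XUT1359 had 3, 36, 14 and 43. Over all ORFs the minus strand had more reads in each condition, with a plus share of 42.9% in WT + CHX and 6.67% in upf1 (0.169 to 31.9%). In upf1 + CHX it was 30.6%. On ORFs wholly inside the shared stretch the plus strand led in both CHX conditions: XUT0520 had 0, 27, 1 and 19 reads there and XUT1359 had 3, 15, 3 and 13. The pooled plus share inside was 58.0% (46.5 to 68.9%). The 75-nt first ORF of XUT0520 had 0, 24, 1 and 11 reads and the 45-nt first ORF of XUT1359 0, 10, 2 and 16. They scored 0.882 and 0.485 in upf1 + CHX.

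**Figure D3:**
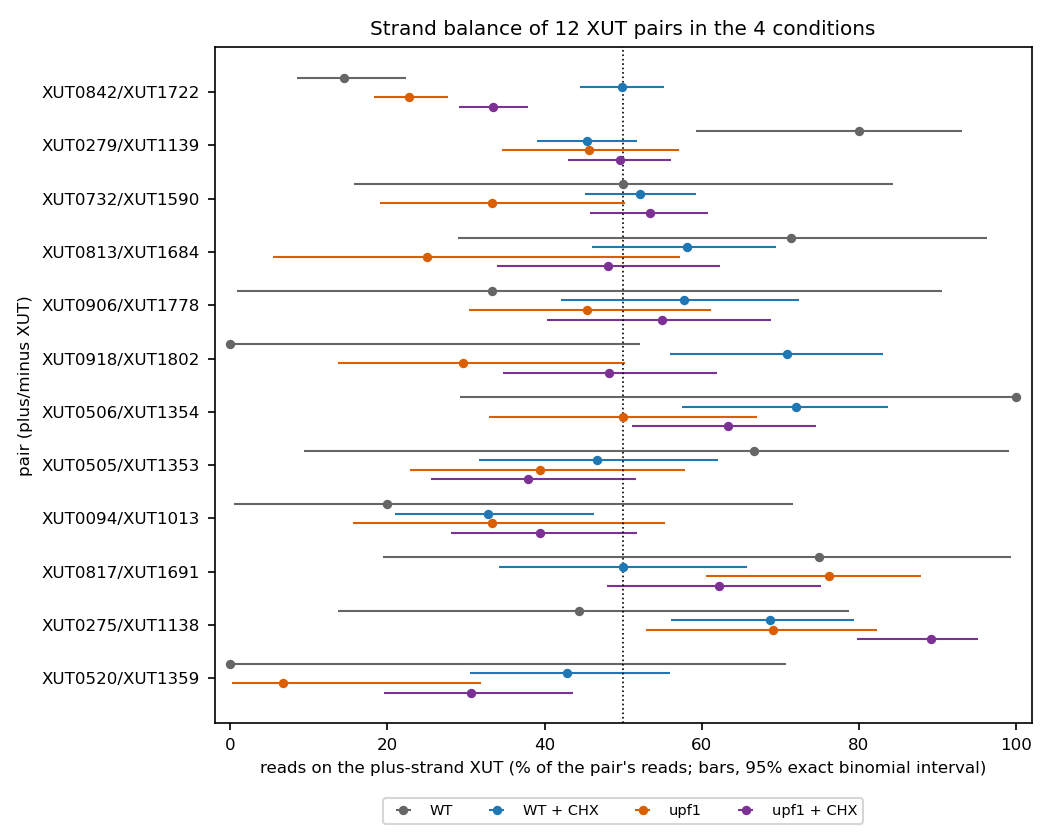
Percent of a pair's reads on the plus-strand XUT (x axis) for the 12 pairs with most reads on the less-read partner (y axis) in the 4 conditions; points are the shares and bars their exact binomial 95% intervals, which cover counting error, and the dotted line marks an even split. The share of XUT0842/XUT1722 lies at 14.4% in WT and 49.9% in WT + CHX, and most WT bars of the other pairs are wide because they rest on few reads.

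The balance between strands within a pair, here over all non-overlapping ORFs, does not need a library size, so it was set between conditions as an odds ratio of plus over minus reads for those of the 12 pairs with 20 reads in both conditions and no partner at 0. From WT + CHX to upf1 + CHX, 12 pairs were compared and 3 had an interval off 1. The odds fell to 0.505 of those in WT + CHX for XUT0842/XUT1722 (0.376 to 0.676) and to 0.387 for XUT0918/XUT1802 (0.156 to 0.929). They rose 3.73-fold for XUT0275/XUT1138 (1.44 to 10.6). The other 9 pairs had intervals that include 1. Inside the shared stretch alone, XUT0918 had 34 and 27 reads in these conditions and XUT1802 had 10 and 12. The plus strand thus led there in both. XUT0842 had 21 and 15 reads there against 180 and 307 for XUT1722, and XUT0275/XUT1138 had 1 pooled read. No odds ratio was computed from these inside counts.

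From upf1 to upf1 + CHX, 10 pairs were compared, and the odds rose 1.70-fold for XUT0842/XUT1722 (1.22 to 2.40), 2.28-fold for XUT0732/XUT1590 (1.05 to 5.17) and 3.65-fold for XUT0275/XUT1138 (1.25 to 11.4). WT had 20 reads in only 2 of the pairs. From WT to upf1 the odds were 0.213-fold for XUT0279/XUT1139 (0.0569 to 0.661) and 1.75-fold for XUT0842/XUT1722 (0.947 to 3.38). From WT to WT + CHX they were 0.209-fold (0.0592 to 0.597) and 5.88-fold (3.28 to 11.1), in opposite directions in these pairs. The conditions enter several of these comparisons, and the spread between cultures is in none of the intervals.

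In 6 of the 45 pairs that had at least 10 reads in 2 conditions, the more-read partner over all non-overlapping ORFs differed between such conditions. They were XUT0279/XUT1139, XUT0732/XUT1590, XUT0813/XUT1684, XUT0906/XUT1778 and XUT0918/XUT1802, described above, and XUT0586/XUT1432 between the cell wall mannoprotein genes CWP2 and CWP1. XUT0586 had 0, 13, 2 and 10 reads, and XUT1432 had 2, 8, 2 and 11. All reads of XUT0586 lay on its 108-nt first ORF. On ORFs wholly inside the shared stretch XUT0586 had the same reads and XUT1432 had 0, so the more-read partner did not change there. The plus share was 61.9% in WT + CHX (38.4 to 81.9%) and 47.6% in upf1 + CHX (25.7 to 70.2%). In none of the 6 pairs did 2 conditions have intervals of the plus share on opposite sides of an even split.

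At the other end stood pairs read on 1 strand only. XUT1500 had 2, 63, 10 and 38 reads, and its partner XUT0663, with 2 ORFs in a span of 67 nt that overlaps a Ty1 LTR, had 0 of the 113 reads of the pair, which allows a share of up to 2.65% (3 reads). XUT0045 had 4, 25, 19 and 38 reads and XUT0970, opposite it over 240 nt, had 0 of 86, which allows up to 3.49%. XUT1240, which runs through a Ty2 element, had 4, 17, 34 and 27 reads, and both of its partners, XUT0358 and XUT0359, had 0, which allows up to 3.66% of a pair's 82 reads. XUT1057 had 2, 24, 24 and 27 reads and both of its partners, XUT0171 and XUT0172, had 0, which allows up to 3.90% of 77. These limits are for whole spans. On ORFs wholly inside the shared stretch, XUT0663/XUT1500, XUT0358/XUT1240, XUT0171/XUT1057 and XUT0172/XUT1057 had 0 pooled reads on both strands. Inside their stretches XUT0045 had 9 pooled reads and XUT1240, opposite XUT0359, had 11.

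The fourth XUT with more than 1 partner was XUT1763, beside the glutaredoxin gene GRX5, with 15, 92, 37 and 113 reads. Of these, 11, 72, 30 and 89 lay on its 135-nt first ORF. Its partner XUT0885 had 0, 15, 4 and 14 reads and its other partner XUT0884, which overlaps a Ty4 element, had 0, 1, 0 and 0. In all, 7 paired XUTs had no read in any condition (6.60%, against 11.3% of the other XUTs), and each of them had 2 to 4 ORFs in a span of 67 to 395 nt.

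The longest shared stretches after that of XUT0505/XUT1353 were those of XUT0072/XUT0988 (1356 nt), XUT0497/XUT1348 (1157 nt) and XUT0918/XUT1802 (1153 nt). XUT0072 had 0, 3, 2 and 5 reads and XUT0988 had 3, 17, 21 and 29, with Ty1 and Ty4 LTRs on both. XUT0497 had 1, 10, 5 and 19 reads and XUT1348, over which a Ty1 LTR lies, had 3, 22, 6 and 22. The pooled plus share was 12.5% in XUT0072/XUT0988 and 39.8% in XUT0497/XUT1348. For the latter it was 66.0% (51.7 to 78.5%) on ORFs wholly inside the shared stretch, so the direction there was the opposite one.

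Reads were next compared inside and outside the shared stretches. Over all paired XUTs, ORFs wholly inside held 1.04, 7.08, 4.09 and 8.25 reads per 100 nt. ORFs wholly outside held 0.678, 6.0, 3.64 and 6.86. The ratio of inside to outside was 1.53 (1.23 to 1.89), 1.18 (1.09 to 1.27), 1.12 (1.02 to 1.24) and 1.20 (1.12 to 1.29). The ratio rested on 1 pair: without XUT0842/XUT1722 the ratio was 0.737 (0.560 to 0.963), 1.03 (0.948 to 1.11), 0.729 (0.650 to 0.816) and 0.967 (0.896 to 1.04). Of the 40 XUTs with at least 20 reads and ORFs of both kinds, 20 were denser inside and 20 outside.

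In 72 paired XUTs the most-read ORF had at least 10 pooled reads. It held a median of 65.0% of the reads of its XUT (22.5 to 100%), and at least 50% in 53 of them. In 33 it was the first ORF. That ORF lay inside the shared stretch in 31, outside in 32 and across its edge in 9. Its median length was 79.5 nt, against 45.0 nt over all ORFs of the pairs, and a longer ORF has more room for reads.

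For the contrasts between conditions, the reads of each XUT were expressed as a share of the reads in the ORFs of chromosomal XUTs in that condition. A XUT was called raised or lowered when its share differed by more than 2-fold and it had at least 20 reads in the conditions compared. These are ratios of 1 value to 1 value, and a share moves when other XUTs move. XUT ORFs of the 2-micron plasmid are outside the totals. They would add 25.4% of the reads in WT, 6.55% in WT + CHX and, for upf1, 10.9% without and 5.70% with CHX. Counting them would raise each log2 ratio against WT by 0.26 (upf1) or 0.33 (WT + CHX) and the others by under 0.1. The 4 contrasts share conditions, so their values are given side by side and not compared. Backgrounds were computed at these settings only, and not for the other totals, ORF sets or XUT sets named below.

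Between upf1 and WT, 30 paired XUTs could be compared. Of these, 8 were raised (26.7%) where the background over all 275 XUTs compared was 30.9%, and 4 were lowered (13.3%) where it was 8.36%. The median log2 ratio was 0.17, against 0.45 over all XUTs. The most raised was XUT1434, antisense to CUE2 and upstream of YKL091C, with 97 upf1 reads against 3 in WT and a 6.04-fold higher share (log2 2.59, 1.01 to 4.90). Of its 413 pooled reads, 4 lay on ORFs wholly inside its shared stretch, and its partner XUT0589 had 1 pooled read. XUT0906 and XUT1353 each had 20 reads against 1, a 3.74-fold ratio whose interval includes no change (log2 1.90, -0.74 to 7.28). The most lowered were XUT0279 with 37 against 20 reads (log2 -1.53, -2.35 to -0.67), XUT1763 with 37 against 15 (log2 -1.12, -2.02 to -0.15) and XUT1793 with 50 against 20 (log2 -1.10, -1.87 to -0.27). XUT1722 was the other one lowered, with 248 against 95 reads (log2 -1.04, -1.38 to -0.68). The calls rest on few WT reads, and 2 of the 8 raised XUTs and all 4 lowered ones had an interval off 0. With totals that also hold the XUT ORFs of the 2-micron plasmid, 9 were raised and 1 was lowered.

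Between upf1 + CHX and WT + CHX, 61 paired XUTs were compared, 1 was raised (1.64%, background 5.23%) and 3 were lowered (4.92%, background 7.13%). The median log2 ratio was -0.14, against -0.05 over all 631 XUTs compared. XUT0037, upstream of SCO2, had 20 reads against 8 (log2 1.02, -0.23 to 2.41). XUT1138 had 8 against 21 (log2 -1.70, -3.08 to -0.47), XUT0813 had 25 against 43 (log2 -1.09, -1.86 to -0.35) and XUT1500 had 38 against 63 (log2 -1.04, -1.66 to -0.43). XUT1138 and XUT1500 overlap LTRs. With all listed ORFs 2 were raised and 5 lowered, and without XUTs over an LTR or Ty 1 was lowered.

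Between WT + CHX and WT, 15 of 46 paired XUTs were raised (32.6%, background 30.1%) and 1 was lowered (2.17%, background 9.54%). The median log2 ratio was 0.50, against 0.31 over all 409 XUTs compared. The most raised were XUT1434 with 132 reads against 3 (5.73-fold, log2 2.52, 0.94 to 4.82), XUT1500 with 63 against 2 (4.10-fold, log2 2.04, 0.12 to 5.11) and XUT1139 with 135 against 5 (3.52-fold, log2 1.81, 0.56 to 3.46). The lowered one was XUT1722, with 180 against 95 reads (log2 -2.02, -2.38 to -1.64). Its partner XUT0842 had 179 against 16 (log2 0.54, -0.20 to 1.38). Of the 15 raised, 5 had an interval off 0. With all listed ORFs 4 were lowered, and without XUTs over an LTR or Ty 0.

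Between upf1 + CHX and upf1, 10 of 55 paired XUTs were raised (18.2%, background 20.7%) and 2 were lowered (3.64%, background 9.70%). The median log2 ratio was 0.49, against 0.21 over all 536 XUTs compared. XUT0520 had 19 reads against 1 (log2 3.42, 0.77 to 8.80), XUT0813 had 25 against 3 (log2 2.23, 0.52 to 4.60) and XUT0732 had 95 against 13 (log2 2.04, 1.20 to 3.0). XUT1138 had 8 against 13 (log2 -1.53, -3.0 to -0.15) and XUT1240 had 27 against 34 (log2 -1.16, -1.94 to -0.39). Of the 10 raised, 6 had an interval off 0.

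**Figure D4:**
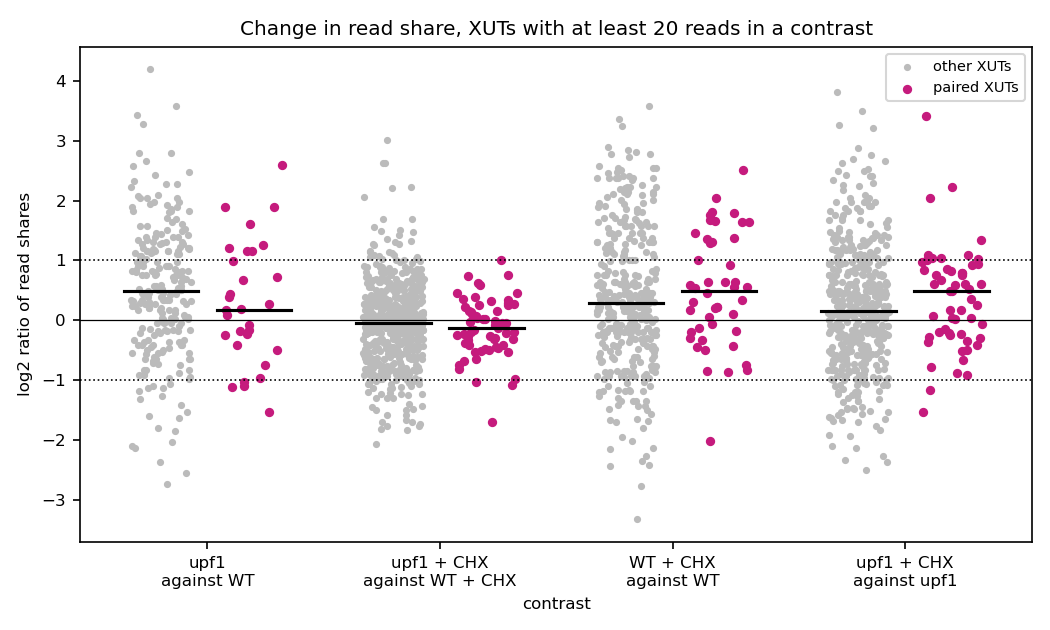
Log2 ratio of read shares (y axis) in the 4 contrasts (x axis) for paired XUTs (coloured) and other XUTs (grey) with at least 20 reads in the contrast; each point is a XUT, black bars are medians of the drawn points and dotted lines mark a 2-fold change. The paired XUTs lie within the range of the others in each contrast.

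The direction of the ratio was also counted by pair. Between upf1 + CHX and WT + CHX both partners had enough reads in 21 pairs. The shares of both rose in 2, those of both fell in 9, and they went in opposite directions in 10, counting any difference from 0. Between upf1 + CHX and upf1, 17 pairs gave 8, 2 and 7 in the same order. Between WT + CHX and WT, 10 pairs gave 6, 0 and 4, and between upf1 and WT, 3 pairs gave 1 of each. Both partners had an interval off 0 in 2, 2, 1 and 0 pairs of the 4 contrasts as just listed. These were XUT0732/XUT1590 and XUT0842/XUT1722 in the first, XUT0732/XUT1590 and XUT0279/XUT1139 in the second and XUT0732/XUT1590 in the third. XUT0732 and XUT1590 fell together in the first (log2 -0.46 and -0.53) and rose together in the second (2.04 and 0.85) and the third (1.79 and 1.66), while in the first XUT0842 fell (log2 -0.52) and XUT1722 rose (0.46). XUT0279 and XUT1139 rose together in the second (0.82 and 0.60).

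The phase score was compared between the partners. A XUT was called when an ORF with at least 10 reads in a condition scored at least 0.32. Which frame was read cannot be told from the score, as its formula is not given. Chromosomal XUT ORFs with 1 read scored 1 in 90.4%, 88.4%, 91.3% and 89.2% of cases and 0 in the others, hence the minimum of reads. In upf1 + CHX, 50 of the 57 paired XUTs with such an ORF were called (87.7%, background 83.3% over 516 XUTs). In upf1 it was 22 of 29 (75.9%, background 74.0%), in WT + CHX 35 of 48 (72.9%, background 75.3%) and in WT 1 of 4 (25.0%, background 71.4%). The median score of the ORFs with at least 10 reads was 0.397 over 112 ORFs of the pairs in upf1 + CHX, against 0.435 over all such ORFs. In upf1 it was 0.397 against 0.378 and in WT + CHX 0.375 against 0.385. In WT it was 0.301, from 4 ORFs only, against 0.391.

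Both partners were called in 14 of the 17 pairs in which both had an ORF of 10 reads in upf1 + CHX, in 5 of 5 in upf1 and in 3 of 11 in WT + CHX. No pair reached this depth on both strands in WT. Of all XUTs at this depth, 83.3% were called in upf1 + CHX, 74.0% in upf1 and 75.3% in WT + CHX. A pair needs a call on each strand, so these rates of single XUTs are not a background for the pair counts. No background for pairs was computed, so whether the pair counts differ from it was not tested. The 5 pairs in upf1 were XUT0842/XUT1722, XUT0279/XUT1139, XUT0732/XUT1590, XUT0906/XUT1778 and XUT0506/XUT1354. In WT + CHX they were XUT0732/XUT1590, XUT0813/XUT1684 and XUT0282/XUT1140. The pair XUT0732/XUT1590 was called on both strands in each of these 3 conditions. Calls used all listed ORFs, so a call can rest on an ORF that shares reads with a more-read ORF under the score threshold. XUT1684 in WT + CHX was such a case. Its most-read ORF scored under the threshold there, as given above, and its other non-overlapping ORFs held too few reads for a call. That call thus came from a listed ORF outside the non-overlapping set.

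In upf1 + CHX the median score was 0.398 over 39 ORFs inside the shared stretch, 0.381 over 60 outside and 0.410 over 13 across its edge. In WT + CHX it was 0.367 over 34 inside, 0.364 over 48 outside and 0.451 over 13 across. In upf1 it was 0.473 over 18 inside, 0.356 over 22 outside and 0.375 over 9 across. In WT it was 0.260 over 2 inside and 0.346 over 2 outside.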

How the data were processed

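Ribosome-protected RNA was sequenced from 8 libraries in 4 conditions with 2 replicates each. The authors deposited 1 table with a read count per ORF and condition, in whole numbers not scaled to library size, and a phase score per ORF and condition, per the file headers. HISAT2 2.2.0, cutadapt and UMI-tools are named with build R64 in the submitters' processing notes. Not given in the sources used here: how ORFs were listed, how the score was made, how replicates were merged and whether counting used strand. The counts cover XUT ORFs only, so their sums are not library depths.

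Spans, pairs and sums were computed with Python 3.11.15, pandas 2.3.3, NumPy 2.4.6 and SciPy 1.17.1, and figures with matplotlib 3.10.9. Sums per XUT used 9205 of the 13941 listed ORFs, which do not overlap on the same strand, taken in order of pooled count. For ORF-level values and phase calls all listed ORFs were used. Shares have Clopper-Pearson intervals, and ratios and odds ratios exact conditional intervals, all at 95%; they cover counting error only, as do the limits given for counts of 0, which are 3 reads of the pair's total. Where 1 condition had 0 reads, a ratio was bounded with a floor of 3 reads. The ratio and pairing code was tested on simulated data. Tests planned for replicates were not run, since the table merges them, and no p-value is given. ORFs end before the stop codon and coordinates are 1-based; CDSs, LTRs and Ty elements are those of the RefSeq R64 annotation.

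Members, lists and thresholds were chosen with earlier results of these data known. The named pairs are the 12 with most pooled reads on the less-read partner, the 4 most one-sided with at least 50 reads on the other partner, the 4 with the longest overlaps, those whose more-read partner differs between 2 conditions of at least 10 reads, every XUT with more than 1 partner, and in each contrast the 3 members most raised and most lowered among those called. XUT0083/XUT1007, XUT0842 in the contrasts and XUT1722 between upf1 and WT were named after their values were seen. Alternatives changed the ORF set, the overlap, the fold, the read minimum, the score threshold and the totals.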

Additional observations from a re-analysis of the deposited data

How the results depend on the processing

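No paired analysis was possible because the table merges the 2 replicates of each condition, and for the same reason no replicate could be left out. Of 93 alternative values, 47 stayed within the 95% interval (shares, ratios) or within 1.5 times (counts, medians) of the value reported, 43 moved further and 3 reversed. The reversals are the density ratios without XUT0842/XUT1722, an alternative chosen after seeing the data: 0.737 in WT, 0.729 in upf1 and 0.967 in upf1 + CHX, with 1.03 in WT + CHX. With all listed ORFs the pairs held 9.93% of reads in upf1 and 11.0% in upf1 + CHX, between upf1 + CHX and WT + CHX 2 were raised and 5 lowered, and between WT + CHX and WT 4 were lowered. With a 50-read minimum the raised XUTs numbered 3 (upf1 against WT), 0 (upf1 + CHX against WT + CHX), 8 (WT + CHX against WT) and 2 (upf1 + CHX against upf1, with 1 lowered); these alternatives test fewer XUTs. With a fold of 3 the raised numbered 4, 0, 9 and 3 in that order, and the lowered 0 between upf1 and WT, 1 between upf1 + CHX and WT + CHX and 0 between upf1 + CHX and upf1. With plasmid reads in the totals 1 was lowered between upf1 and WT, as those totals raise its log2 ratios by 0.26. Without XUTs over an LTR or Ty, also chosen after seeing the data, 1 was lowered between upf1 + CHX and WT + CHX and 0 in both CHX contrasts within a strain. With 20 reads per ORF, phase calls numbered 16 in WT + CHX, 7 in upf1 without CHX and 20 with it. With a score of 0.5 they numbered 0 in WT, then 18, 12 and 26. For none of these alternative counts was the share over all XUTs computed, so they can be set beside the main counts only. From ORFs inside the shared stretch the median on the less-read partner was 26.2% pooled, 1.04% in WT (1 pair) and 27.8% in upf1 + CHX; fewer pairs enter. Of 20 alternative strand shares of single pairs, 9 stayed in their interval. Depth limits WT most: 4 pairs had 20 reads there.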
